A study of Mus musculus with 24 samples.

Results

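The trace amine-associated receptors described here are 10 mouse genes: Taar2, Taar3, Taar4, Taar5, Taar6, Taar7a, Taar7b, Taar7d, Taar7e and Taar9. They were taken by name from 57010 genes in each of 2 tables of expected read counts, and all 10 were present in both. RNA came from the olfactory epithelium of wild-type male C57BL/6J mice aged 8 weeks, in 24 libraries from 8 groups of 3. Every mouse spent 4 h alone in an odor-free chamber before a 90 min exposure, and controls met an empty filter paper. In the batch labelled AD, the groups had no odor, the ketone acetophenone, the long straight-chain aldehyde decanal, or those 2 mixed 1:1. In the batch labelled OC, they had no odor, octanal (like decanal, with a shorter chain), the unsaturated alcohol cis-3-hexenol, or those 2 mixed 1:1. Each odorant or mixture was given as 10 µL on paper. The RNA came from tissue lysate spun clear before and after addition of detergent. Each odorant was compared with the controls of its own batch, so the 3 comparisons within a batch share their control libraries.

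Trace amine-associated receptors are G protein-coupled receptors of the olfactory epithelium, separate in sequence from the large olfactory receptor family. A mature olfactory sensory neuron uses a receptor gene of either family, and receptors of both families signal through the G protein Golf, adenylyl cyclase 3 and a cyclic nucleotide-gated channel. The family is known for detecting volatile amines: Taar4 responds to phenylethylamine, Taar5 to trimethylamine and Taar3 to isoamylamine, and most members are found in neurons of the dorsal epithelium. Taar1, outside the member set, acts mainly in the brain. None of the 4 odorants is an amine.

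The starts of Taar6, the most abundant member, and of the 4 Taar7 members are shown first, because they bear on how far reads of the Taar7 copies can be told apart. Each line runs from 30 bases upstream, in lower case, into the first 50 coding bases, in capitals, 5′ to 3′ on the strand of the gene, from RefSeq with build GRCm38.p6. The stretches lie at chr10:23985597-23985676 (minus strand), chr10:23993432-23993511 (minus strand), chr10:23999909-23999988 (plus strand), chr10:24027192-24027271 (plus strand) and chr10:24037584-24037663 (plus strand).
Taar6: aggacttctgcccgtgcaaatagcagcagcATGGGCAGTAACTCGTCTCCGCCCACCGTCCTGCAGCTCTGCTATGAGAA
Taar7a: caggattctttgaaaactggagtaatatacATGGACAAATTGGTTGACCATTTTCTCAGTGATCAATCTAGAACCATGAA
Taar7b: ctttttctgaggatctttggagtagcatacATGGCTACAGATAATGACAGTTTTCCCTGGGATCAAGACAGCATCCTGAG
Taar7d: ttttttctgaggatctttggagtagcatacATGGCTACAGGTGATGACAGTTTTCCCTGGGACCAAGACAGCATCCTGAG
Taar7e: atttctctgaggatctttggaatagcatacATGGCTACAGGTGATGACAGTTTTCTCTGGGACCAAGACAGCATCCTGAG
In these 50 coding bases Taar7d and Taar7e differed at 1 position, Taar7b and Taar7d at 3, and Taar7b and Taar7e at 4. Taar7a differed from the other 3 at 19 to 20 positions. Over the whole coding sequence the 4 Taar7 members were 93.1% to 95.0% identical to each other over 6 pairs, while the other 39 pairs of members were 53.3% to 72.2% identical. Taar7e shared most with its relatives, with 33.2% of its 100-base stretches found unchanged in another Taar gene. Shares were 17.1% for Taar7b, 10.9% for Taar7d, 9.61% for Taar7a and 0% for the other 6. Shorter stretches of 50 bases were shared more often: 53.9% for Taar7e, 40.4% for Taar7b, 38.6% for Taar7a, 29.5% for Taar7d and 0.101% for Taar6. In the AD batch Taar7e had a count that was not whole in 11 of 12 libraries, as happens when a read is divided between genes, and in the OC batch in 10 of 12. Taar2, Taar3, Taar4, Taar5, Taar6 and Taar9 had whole counts throughout. Levels of single Taar7 members are therefore less certain than those of Taar2, Taar6 and Taar9.

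Libraries held 19003768 to 24802512 counts, of which 148.5 to 423.1 fell on the 10 members and 77421 to 146942 on the 1407 genes of the olfactory receptor family (Olfr). All 5 markers of mature sensory neurons had counts, with a summed level of 14992 to 20680 CPM (read counts scaled to a common library total, corrected by TMM). TMM scaling was done within each batch, so levels set across batches are a description only.

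Taar6 was the most abundant member. Per kilobase of coding length it had a mean of 2.90 ± 0.461 CPM (SD, 12 libraries) in the AD batch and 2.42 ± 0.808 CPM in the OC batch. Its lead there over Taar2, at 1.89 ± 0.698, was smaller than either SD. A middle tier followed, in which Taar2, Taar7b, Taar7e, Taar7a and Taar7d lay at means of 1.71, 1.68, 1.47, 1.42 and 1.20 CPM per kilobase over 24 libraries. The SDs of these 5, from 0.357 to 0.582, exceeded the steps between neighbours in that order, so neighbouring ranks are not firm. These SDs span all groups and do not use that the members were read in the same libraries. Differences within a library were not tested. Taar9 stood at 0.420 ± 0.185, below each of the first 6 by more than their SDs. The lowest tier held Taar3 at 0.211 ± 0.132, Taar4 at 0.142 ± 0.110 and Taar5 at 0.131 ± 0.104 CPM per kilobase, which did not separate from each other. The first 6 genes took 91.9% of member counts, the 4 Taar7 members 53.3%, and Taar3, Taar4 and Taar5 together 4.29%. Taar4 had 82 counts in all and none in 3 libraries, and Taar5 had 72 counts and none in 2. A count of 0 there allows up to 3 counts, or 0.128 to 0.145 CPM, by counting error alone.

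**Figure D1:**
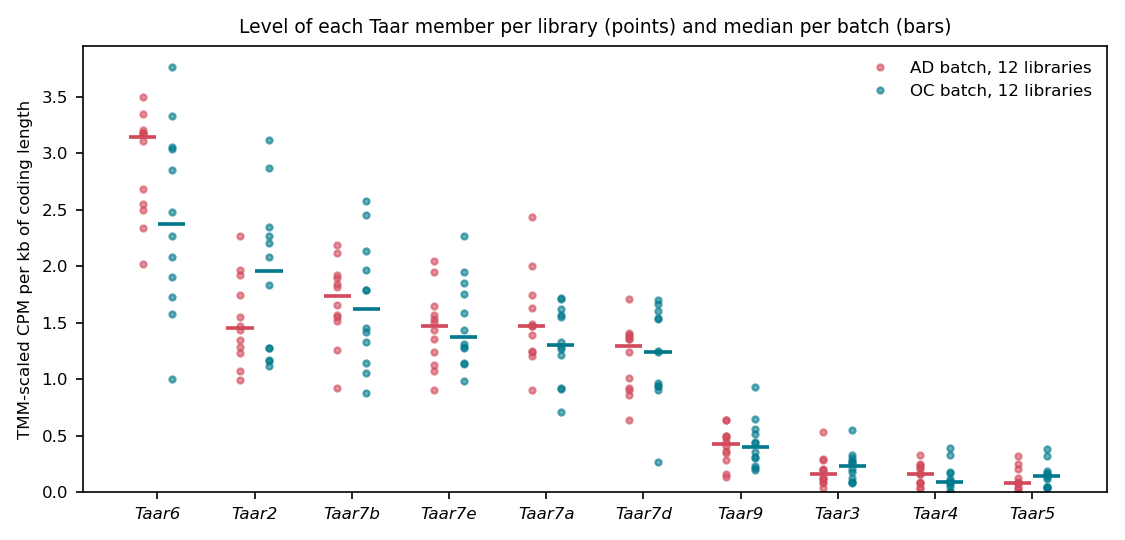
Level of each of the 10 members in TMM-scaled CPM per kilobase of coding length, with 1 point per library (AD batch red, OC batch teal) and a bar at each batch's median. Taar6 lies highest, 5 members form a middle tier, and Taar3, Taar4 and Taar5 lie lowest in both batches.

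The other Taar genes in the tables were counted for comparison. Taar7f, another Taar7 copy outside the member set that responds to tertiary amines, had 1196 counts, 23 to 77 per library. Taar8b had 107 counts, Taar8c 15, Taar8a 7 and the pseudogene Taar7c-ps 4. Taar1 had 0 counts in 24 libraries, which allows up to 0.00549 CPM.

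In the OC batch the summed level of the members was lower in the no-odor mice than after any of the 3 exposures. With octanal the group means of Taar7a and Taar5 went the other way. Summed over all 10, the no-odor libraries had 7.22, 9.84 and 7.06 CPM. After octanal the values were 10.6, 11.1 and 13.4 CPM, after cis-3-hexenol 14.4, 11.4 and 12.8 CPM, and after the mixture 17.2, 12.7 and 10.9 CPM. All 9 exposed libraries stood above all 3 controls. The log2 ratio of group means was 0.54 for octanal, 0.68 for cis-3-hexenol and 0.76 for the mixture, without a test because it is a sum over chosen genes. In the AD batch the order was the other way: the no-odor libraries had 13.4, 13.0 and 13.8 CPM, acetophenone 11.0, 10.9 and 9.66 CPM, decanal 11.2, 13.0 and 11.9 CPM, and the mixture 9.51, 11.1 and 12.7 CPM. The log2 ratios were -0.35, -0.16 and -0.27, and all 9 exposed libraries lay below all 3 AD controls, decanal library 2 by a small margin. The controls of the 2 batches stood at 13.4 ± 0.395 CPM for AD and 8.04 ± 1.56 CPM for OC (SD, n = 3). In whole-tissue RNA, fewer neurons of a type and less RNA per neuron cannot be told apart.

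The olfactory receptors, read in the same libraries, had a like pattern in the OC batch. Their summed level was 3942 ± 363 CPM in the OC no-odor libraries, 5168 ± 243 after octanal, 5088 ± 238 after cis-3-hexenol and 5591 ± 339 after the mixture (SD, n = 3). For every 100 olfactory receptor counts the OC controls had 0.190 to 0.226 member counts, octanal 0.210 to 0.246, cis-3-hexenol 0.226 to 0.296 and the mixture 0.204 to 0.288. On that scale the log2 ratios shrank to 0.15, 0.32 and 0.26, and each of the 3 exposed groups overlapped with the controls, cis-3-hexenol through its library 2. Summed receptors of the AD batch stood at 5304 ± 182 CPM without odor, 5291 ± 23.6 with acetophenone, 4880 ± 348 with decanal and 4797 ± 573 with the mixture. Acetophenone libraries had 0.183 to 0.207 member counts per 100 receptor counts against 0.252 to 0.254 without odor, a log2 ratio of -0.35 on this scale too. Decanal libraries, at 0.246 to 0.247, had a log2 ratio of -0.038, and mixture libraries, at 0.222 to 0.241, had one of -0.13.

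**Figure D2:**
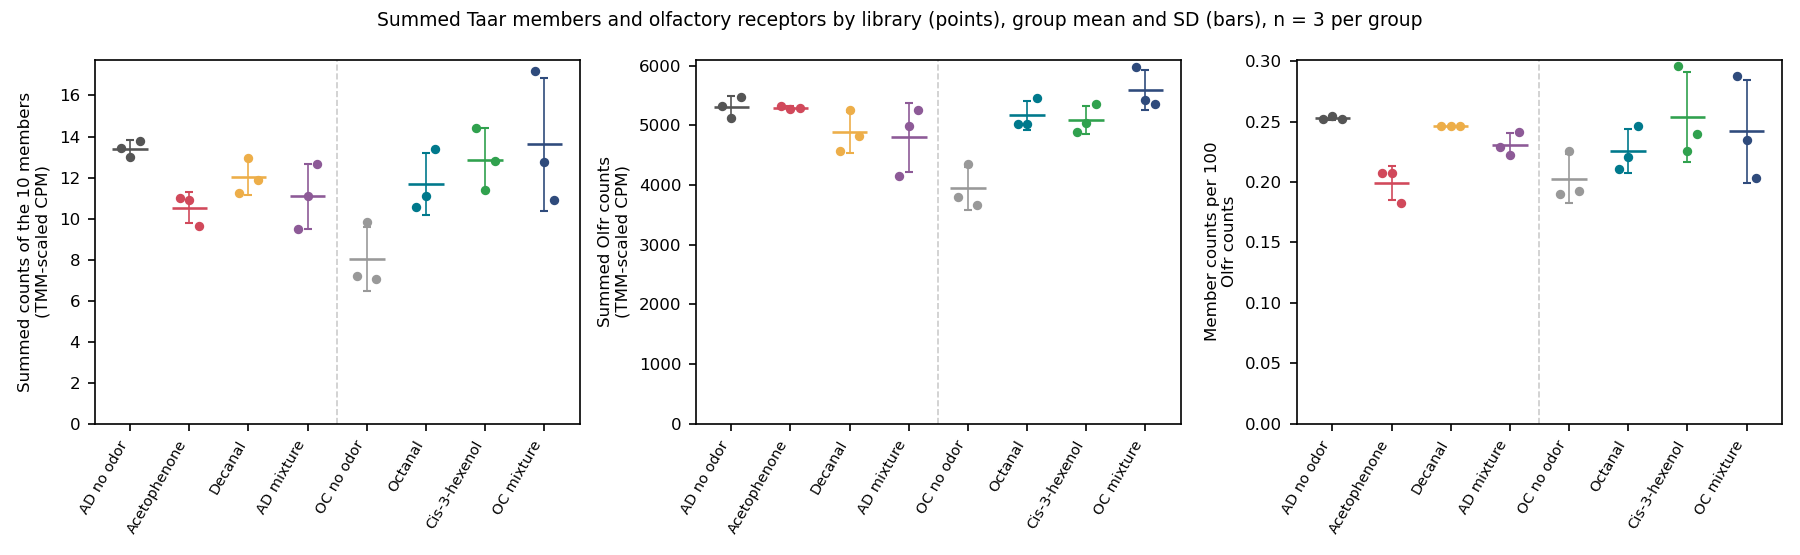
Summed counts of the 10 members (left, TMM-scaled CPM), summed Olfr counts (middle, TMM-scaled CPM) and member counts per 100 Olfr counts (right) in each of 24 libraries, with group means and SD bars (n = 3), the AD batch left of the dashed line. Within the OC batch the no-odor libraries are lowest in the first 2 panels, at 7.06 to 9.84 CPM for the members, and in the right panel each exposed group overlaps with them.

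Of the 10 members, 7 had enough counts to be tested in each comparison. Taar3, Taar4 and Taar5 did not pass the filter on low counts. Each member was tested among all genes of its batch with edgeR's quasi-likelihood F-test and was called where the p, adjusted after Benjamini and Hochberg, was under 0.05.

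The comparison of octanal with its no-odor group asked which of these receptor transcripts differed in level between the 2 groups. Taar6 was called higher after octanal, and the other 6 tested members were not called. Whether octanal itself or the low level of the controls made the difference was not tested. Taar6 stood at 1.79, 1.64 and 1.04 CPM in the OC no-odor libraries and at 2.96, 2.17 and 3.15 CPM after octanal. The groups did not overlap, and the log2 fold change was 0.88 (SE 0.28, edgeR adjusted p = 0.0292). Across all genes 29.4% were called in this comparison and 14.4% were called higher, so 1 call among 7 members is close to the background. Taar7d had 0.285, 1.01 and 1.04 CPM without odor and 1.66, 1.66 and 1.34 CPM with octanal, again without overlap, at a log2 fold change of 1.01 (SE 0.39, edgeR adjusted p = 0.0651). The first of these control libraries held 7 counts. These 2 were the tested members without overlap, both higher, where 19.7% of all genes were higher without overlap.

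The remaining tested members overlapped between octanal and no odor. Taar9 had a log2 fold change of 0.73 (SE 0.53), Taar2 of 0.60 (SE 0.33), Taar7e of 0.47 (SE 0.30) and Taar7b of 0.33 (SE 0.33). Taar7a was the exception in sign, at -0.14 (SE 0.33), with 1.30, 1.69 and 0.995 CPM without odor and 0.986, 0.764 and 1.85 CPM with octanal. The median over the 7 was 0.60, beside 0.35 for 972 olfactory receptors, of which 165 were called higher and 5 lower, and -0.02 for all genes. The call of Taar6 ended without OC no-odor library 3 (log2 fold change 0.68, edgeR adjusted p = 0.108), without octanal library 1 (0.84, adjusted p = 0.0803) or without octanal library 3 (0.77, adjusted p = 0.0958). Scaled by olfactory receptor counts its log2 fold change was 0.49 (edgeR adjusted p = 0.156).

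Cis-3-hexenol was set against the same OC no-odor libraries. Taar2 rose, about 2.08-fold. It had 1.14, 1.30 and 1.18 CPM without odor and 2.25, 2.13 and 3.18 CPM with cis-3-hexenol. The lowest exposed library was well above the highest control, and the log2 fold change was 1.06 (SE 0.32, edgeR adjusted p = 0.0439). It was the 1 member called of 7, where 12.2% of all genes were called and 5.56% were called higher. Its call did not hold when any 1 of the 6 libraries was left out, with edgeR adjusted p from 0.0574 to 0.192. The call also ended with offsets for length and GC content (log2 fold change 1.08, edgeR adjusted p = 0.0568) and with scaling by olfactory receptor counts (0.68, adjusted p = 0.0726). Under a replicate block 0 of 7 members were called.

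Taar6 after cis-3-hexenol stood at 3.45, 2.57 and 1.98 CPM, above the 1.04 to 1.79 CPM of the controls, at a log2 fold change of 0.83 (SE 0.29, edgeR adjusted p = 0.0719). Taar7d stood at 1.83, 1.73 and 1.34 CPM against 0.285 to 1.04 CPM, at 1.08 (SE 0.39, adjusted p = 0.0866). Taar9 had 0.471, 0.544 and 0.461 CPM against 0.204 to 0.332 CPM, at 0.92 (SE 0.53, adjusted p = 0.281), from 30 counts with the odorant and 17 without. With Taar2, these made 4 tested members that were higher without overlap, where 15.1% of all genes were. Taar7b, Taar7a and Taar7e overlapped, at log2 fold changes of 0.43 (SE 0.33), 0.31 (SE 0.32) and 0.20 (SE 0.31). The median over the 7 members was 0.83, beside 0.42 for 972 olfactory receptors, of which 92 were called higher and 1 lower.

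With the octanal and cis-3-hexenol mixture, as with cis-3-hexenol alone, 7 of 7 tested members had a log2 fold change above 0, and 4 of them were at an unadjusted p under 0.05, where 36.4% of all genes were. Taar6 had 3.91, 3.17 and 2.35 CPM, against 1.79, 1.64 and 1.04 CPM in the same no-odor libraries as for octanal. Taar6 was thus higher without overlap, at a log2 fold change of 1.07 (SE 0.28, edgeR adjusted p = 0.012). It was the 1 member called, where 24.2% of all genes were called and 11.5% were called higher. The call ended without mixture library 1 (0.89, edgeR adjusted p = 0.0637). Taar7b was the other member without overlap, at 2.65, 2.30 and 2.12 CPM against 1.14, 1.93 and 0.947 CPM, at 0.82 on the log2 scale (SE 0.32, edgeR adjusted p = 0.0776). Of all genes, 16.6% were higher without overlap.

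The spread within the mixture group was wide for several members. Taar9 had 0.977, 0.586 and 0.323 CPM against 0.204 to 0.332 CPM, and its log2 fold change was 1.28 (SE 0.51, edgeR adjusted p = 0.0815). Taar2 had 2.93, 2.39 and 1.20 CPM against 1.14 to 1.30 CPM, at 0.85 (SE 0.32, adjusted p = 0.0684). In both, mixture library 3 lay within the control range. Without that library 3 members were called: Taar6 at 1.24 (edgeR adjusted p = 0.0109), Taar2 at 1.14 (adjusted p = 0.0158) and Taar9 at 1.59 (adjusted p = 0.0494). Taar7d, Taar7e and Taar7a overlapped with the controls, at log2 fold changes of 0.72 (SE 0.40), 0.45 (SE 0.30) and 0.18 (SE 0.32). The median over the 7 was 0.82, beside 0.54 for 972 olfactory receptors, of which 261 were called higher and 1 lower. Scaled by olfactory receptor counts, 0 of 7 members were called in any of the 3 OC comparisons by edgeR, with 0, 1 and 0 at an unadjusted p under 0.05, and Taar7a turned below 0 with cis-3-hexenol (-0.048) and with the mixture (-0.32).

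**Figure D3:**
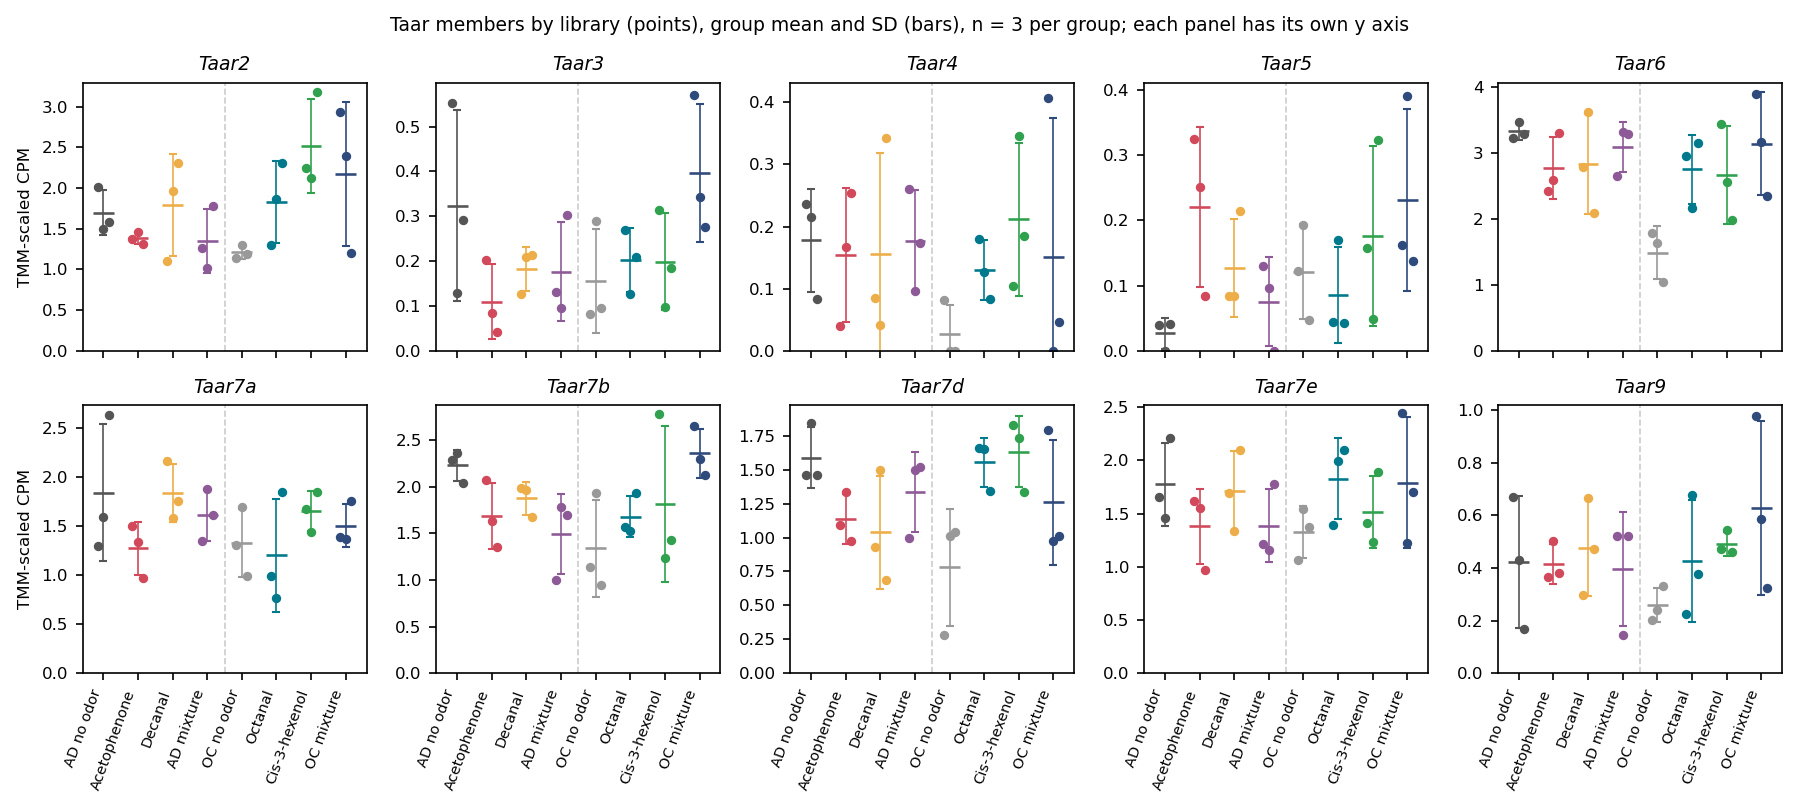
TMM-scaled CPM of each of the 10 members in every library (points), with group means and SD bars (n = 3), the AD batch left of the dashed line and a y axis of its own in each panel. Taar6 has 1.04 to 1.79 CPM in the OC no-odor libraries. Its lowest value is 2.17 CPM after octanal, 1.98 CPM after cis-3-hexenol and 2.35 CPM after the OC mixture. Taar3, Taar4 and Taar5 stay under 0.6 CPM.

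In the AD batch no member was called. With acetophenone all 7 tested members had negative log2 fold changes, and edgeR called 0 of 7, DESeq2 0, and 0 had an unadjusted p under 0.05. Over all genes 0.00512% were called (1 gene) and 6.59% had an unadjusted p under 0.05. Taar7a was lowest at -0.53 (SE 0.29), with 1.50, 1.34 and 0.974 CPM against 1.30, 1.59 and 2.63 CPM. Taar7d had 1.09, 1.34 and 0.974 CPM against 1.46, 1.85 and 1.46 CPM, a log2 fold change of -0.48 (SE 0.31), and Taar2 had 1.38, 1.46 and 1.31 CPM against 2.01, 1.50 and 1.58 CPM, at -0.30 (SE 0.30). These 2 were lower without overlap, where 6.35% of all genes were. Taar7b, Taar7e, Taar6 and Taar9 had log2 fold changes of -0.40, -0.36, -0.26 and -0.03. Adjusted p ran from 0.777 to 0.997. The median over the 7 was -0.36, beside -0.11 for 979 olfactory receptors and 0.01 for all genes, and it was -0.35 when scaled by olfactory receptor counts. Taar9 changed sign without AD no-odor library 1 (0.48), in which it had its highest control level.

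Decanal gave log2 fold changes of -0.61 to 0.17 in the tested members. Their 95% intervals were wide, such as -1.27 to 0.05 for Taar7d and -0.97 to 1.32 for Taar9. EdgeR and DESeq2 each called 0 of 7, and 0 had an unadjusted p under 0.05, while 23.9% of all genes were called and 35.7% had an unadjusted p under 0.05. Of 979 olfactory receptors edgeR called 4.80%, 10 higher and 37 lower. Taar7d had the largest difference, with 0.930, 1.50 and 0.685 CPM against 1.46, 1.85 and 1.46 CPM, a log2 fold change of -0.61 (SE 0.31, edgeR adjusted p = 0.177). Decanal library 2 was the library that overlapped, and without it the value was -0.99 (adjusted p = 0.0454). Taar7b had 1.99, 1.96 and 1.67 CPM against 2.28, 2.36 and 2.04 CPM, lower without overlap, at -0.25 (SE 0.25, adjusted p = 0.515), where 20.1% of all genes were lower without overlap. Taar6 stood at -0.23 (SE 0.21), Taar9 at 0.17 (SE 0.54), Taar2 at 0.07 (SE 0.29), Taar7e at -0.06 (SE 0.28) and Taar7a at -0.003 (SE 0.29). The median over the 7 was -0.06, beside -0.02 for the olfactory receptors, and 0.08 when scaled by olfactory receptor counts, so its sign depends on the scaling.

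With the acetophenone and decanal mixture all 7 tested members again had negative point estimates. Neither edgeR nor DESeq2 called any (0 of 7), and 1 had an unadjusted p under 0.05, while 22.3% of all genes were called and 33.7% had such a p. That member was Taar7b, at 0.999, 1.78 and 1.69 CPM against 2.28, 2.36 and 2.04 CPM, a log2 fold change of -0.58 (SE 0.25, edgeR adjusted p = 0.119). It was the 1 tested member that was lower without overlap, where 18% of all genes were. The others were Taar7e at -0.35 (SE 0.29), Taar2 at -0.33 (SE 0.30), Taar7d at -0.25 (SE 0.30), Taar7a at -0.19 (SE 0.29), Taar6 at -0.11 (SE 0.21) and Taar9 at -0.08 (SE 0.55). Taar6 and Taar9 turned to 0.034 and 0.073 when scaled by olfactory receptor counts. The median over the 7 was -0.25, or -0.11 on that scale. It was -0.10 for 979 olfactory receptors, of which edgeR called 4.90%, 4 higher and 44 lower.

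**Figure D4:**
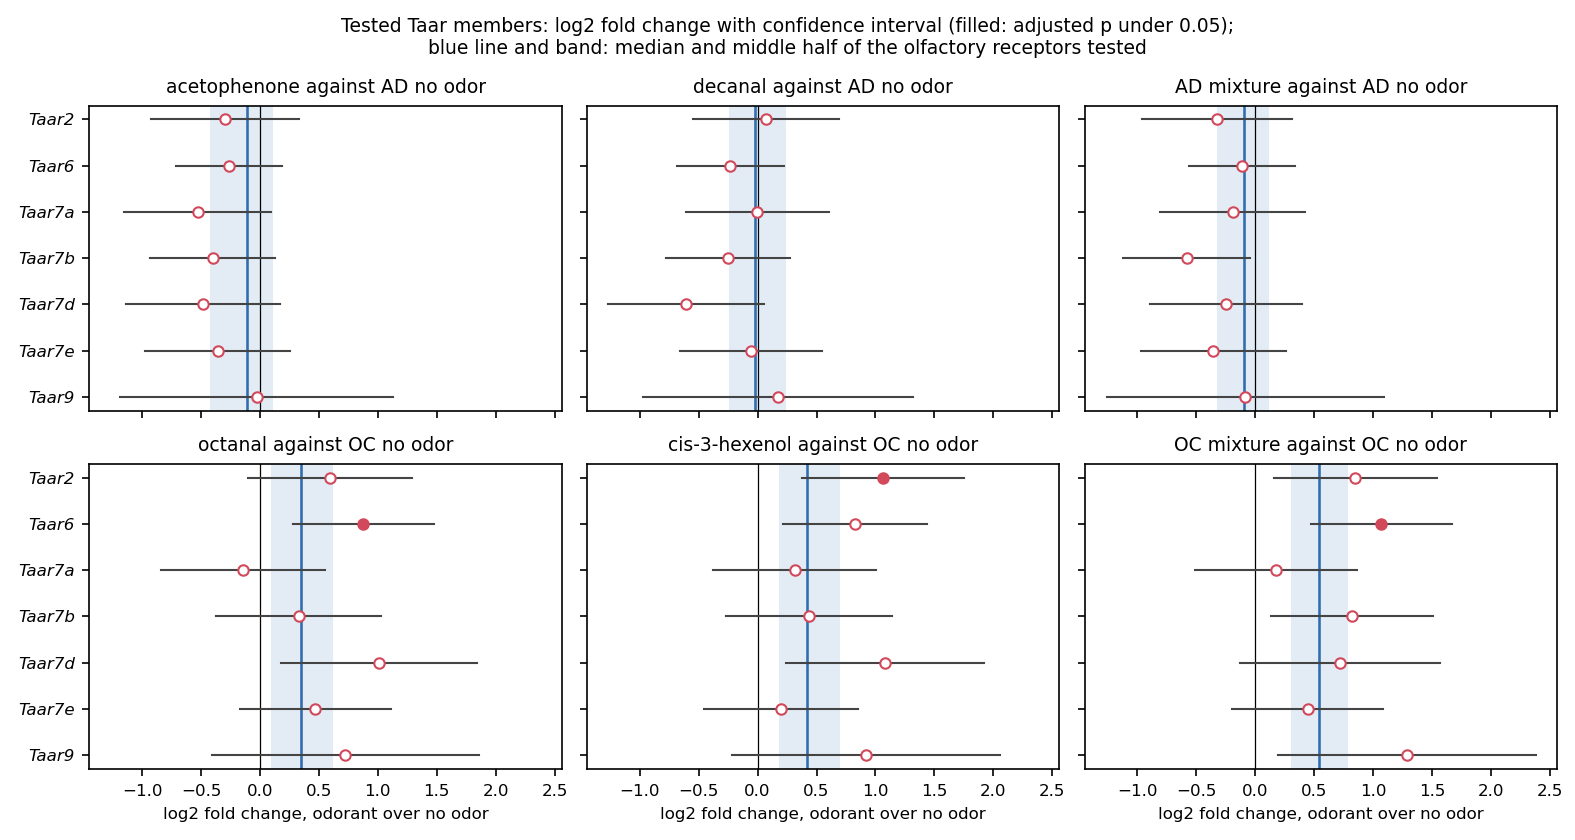
Log2 fold change over no odor of the 7 tested members in each of 6 comparisons, with 95% intervals from the edgeR fit; filled points have an adjusted p under 0.05, and the blue line and band give the median and the middle 50% of the olfactory receptors tested. Filled points are Taar6 with octanal (0.88) and with the OC mixture (1.07) and Taar2 with cis-3-hexenol (1.06). Under scaling by olfactory receptor counts no point is filled, and 9 of the 42 values, all of them not called, change sign.

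The members with few counts were described by counting intervals, which cover counting error alone. Taar5, the trimethylamine receptor, had 16 counts over the 3 acetophenone libraries (8, 6 and 2) and 2 over the AD controls (1, 0 and 1), a ratio of 8.05 with a 95% interval of 1.89 to 72.2. Its direction there was opposite to the other 9 members. Taar3 had 8 counts with acetophenone (5, 2 and 1) and 24 without (14, 3 and 7), a ratio of 0.336 (0.130 to 0.772), and 14 of the 24 came from 1 control library. With the OC mixture Taar3 had 27 counts (14, 7 and 6) against 10 (2, 6 and 2), a ratio of 2.69 (1.26 to 6.22). Taar4, the phenylethylamine receptor, had 2 counts in the OC controls (2, 0 and 0) and 13 with cis-3-hexenol (2, 7 and 4), a ratio of 7.07 (1.60 to 64.5). With octanal it had 9 (4, 3 and 2), a ratio of 4.29 (0.887 to 40.8), and with the OC mixture 11 (10, 0 and 1), a ratio of 5.47 (1.19 to 50.8). The mixture counts came almost wholly from library 1. These 24 ratios of low members were not adjusted for their number, and spread between mice is wider than counting error.

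Decanal and octanal, aldehydes that differ in chain length, were tested in different batches, so their responses were compared as a difference of differences over all 24 libraries. Taar6 and Taar7d differed, and 5 of 7 members did not pass. Taar6 went from 3.33 ± 0.128 to 2.84 ± 0.765 CPM with decanal and from 1.49 ± 0.397 to 2.76 ± 0.522 CPM with octanal (SD, n = 3). The difference between the responses was -1.09 on the log2 scale (SE 0.35, edgeR adjusted p = 0.0167). Taar7d went from 1.59 ± 0.224 to 1.04 ± 0.418 CPM and from 0.780 ± 0.429 to 1.55 ± 0.181 CPM, a difference of -1.60 (SE 0.50, adjusted p = 0.0141). For both genes the exposed groups of the 2 batches were closer in level than the 2 control groups. Of all genes 39.2% were called in this test and 18% were called lower, so 2 of 7 lower is near the background. Neither call held when scaled by olfactory receptor counts (Taar6 -0.60, edgeR adjusted p = 0.149, and Taar7d -1.13, adjusted p = 0.059). The intervals of the other 5 were wide. Taar2 stood at -0.50 (95% interval -1.42 to 0.41), Taar7b at -0.56 (-1.41 to 0.29), Taar7e at -0.51 (-1.35 to 0.34), Taar9 at -0.53 (-2.12 to 1.06) and Taar7a at 0.16 (-0.74 to 1.06).

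Genes that work with these receptors were read from lists. Over all genes edgeR called 29.4% with octanal, 12.2% with cis-3-hexenol and 24.2% with the OC mixture. It called 23.9% with decanal, 22.3% with the AD mixture and 0.00512% with acetophenone. These shares are the background for the call counts of each list here and below, and no list was tested as a set. Among 19 genes of olfactory signal transduction, which Taar and Olfr neurons share, 8 rose and 3 fell with octanal, 8 rose and 3 fell with cis-3-hexenol, and 10 rose and 3 fell with their mixture. Decanal gave 1 higher and 9 lower, the acetophenone and decanal mixture 1 and 11, and acetophenone 0 and 0 in edgeR, where DESeq2 called 0 and unadjusted p was under 0.05 for 1. Adcy3, the adenylyl cyclase of the cascade, rose by 0.57 (SE 0.10) on the log2 scale with octanal, 0.38 (SE 0.10) with cis-3-hexenol and 0.40 (SE 0.10) with the OC mixture. It fell by 0.40 (SE 0.08) with decanal and by 0.51 (SE 0.08) with the AD mixture. Omp, a marker of mature sensory neurons, moved the other way in the OC batch and fell by 0.45 (SE 0.05), 0.31 (SE 0.05) and 0.32 (SE 0.05). Gnal, the alpha subunit of Golf, fell with decanal and the AD mixture, by 0.38 and 0.39, and was not called in the OC batch (0.12, 0.02 and 0.14). Of 12 genes tied to receptor choice, 2 rose and 3 fell with octanal, 0 and 3 with cis-3-hexenol, 1 and 3 with the OC mixture, 3 and 5 with decanal, and 2 and 2 with the AD mixture. Lhx2, a homeodomain factor of that list, was called in none of the 6, at -0.14 to 0.05.

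Because most Taar neurons lie dorsally, zone markers were set beside the members. With octanal and cis-3-hexenol, 0 of the 4 dorsal genes (Nqo1, Acsm4, Robo2 and Sema3f) were called in edgeR, and 0 with the OC mixture, and in each DESeq2 called 0 and 0 had an unadjusted p under 0.05. Medians were 0.03, 0.12 and 0.05, and Acsm4 lay above them, at 0.29 (SE 0.25), 0.38 (SE 0.25) and 0.25 (SE 0.25). Dorsal medians in the AD batch were -0.21 with acetophenone, -0.01 with decanal and -0.16 with their mixture, and 1 of the 4, Sema3f, fell with the mixture (by 0.30, SE 0.09). Of 5 ventral genes 4 fell with octanal, 4 with cis-3-hexenol and 4 with the OC mixture, with medians of -0.34, -0.40 and -0.46. The other gene of that list, the adhesion molecule Ncam2 (named after its values were seen), rose with octanal (0.27, SE 0.08) and with the OC mixture (0.35, SE 0.08) and stood at 0.17 (SE 0.08) with cis-3-hexenol. Nfix, a transcription factor of the ventral list, fell by 0.34 (SE 0.07), 0.43 (SE 0.07) and 0.51 (SE 0.07) with octanal, cis-3-hexenol and the OC mixture. In the AD batch edgeR called 0 of 5 ventral genes in any comparison, while DESeq2 called 0, 0 and 1 and unadjusted p was under 0.05 for 0, 2 and 1, for acetophenone, decanal and their mixture.

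Markers of blood, marrow and bone also differed between groups, in the OC batch in the direction opposite to the summed members. The 5 erythroid genes summed to 2153 to 4462 CPM in the OC no-odor libraries, 745 to 1119 after octanal, 1288 to 1936 after cis-3-hexenol and 843 to 1816 after the OC mixture, with 5, 4 and 4 of the 5 called lower by edgeR (1 with cis-3-hexenol by DESeq2). In the AD batch the same genes summed to 492 to 646 CPM without odor, 228 to 624 with acetophenone, 2135 to 2568 with decanal and 1788 to 2532 with the mixture, with 5 of 5 called higher in the last 2 groups. The 6 bone genes lay at 1958 to 3120 CPM in the OC controls. After the exposures they lay at 1001 to 1161, 1355 to 1689 and 1043 to 1204 CPM, with 5, 4 and 5 called lower by edgeR. The 8 neutrophil and marrow genes lay at 276 to 436 CPM against 157 to 258, 193 to 285 and 165 to 265 CPM, with 7, 0 and 5 called lower. With cis-3-hexenol the marrow range overlapped with the controls, DESeq2 called 1 and unadjusted p was under 0.05 for 3. In the AD batch edgeR called 7 of the 8 marrow genes higher with decanal and with the mixture, and 3 and 5 bone genes. With acetophenone it called 0 of both lists, with unadjusted p under 0.05 for 7 marrow and 0 bone genes. The summed marrow genes overlapped, at 169 to 616 CPM without odor, 291 to 437 with decanal and 313 to 460 with the AD mixture. The summed bone genes did not, at 1183 to 1386 CPM without odor, 1646 to 2289 with decanal and 1891 to 3022 with the mixture. Sustentacular genes, which mark the supporting cells of the epithelium, were as a sum higher in the same OC groups as the summed members. The 4 summed to 2290 to 3076 CPM in the OC controls and to 3536 to 3877, 3198 to 3386 and 3398 to 3678 CPM after the exposures. EdgeR called 2, 0 and 3 of the 4 higher. With cis-3-hexenol DESeq2 called 1, and unadjusted p was under 0.05 for 2. Across the AD groups they summed to 3595 to 3828 CPM without odor, 3859 to 4058 with acetophenone, 3120 to 3443 with decanal and 3092 to 3313 with the mixture. With acetophenone their sum was thus higher where the summed members were lower, though edgeR called 0 of the 4, DESeq2 called 1 and unadjusted p was under 0.05 for 2. EdgeR called 2 of the 4 lower with decanal and 2 with the mixture. No gene of these 4 lists was at 0 in any group. The part of tissue makeup in the differences of Taar2, Taar6 and Taar7d was not tested.

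To find genes with a like pattern, the summed members were compared with 15801 genes over the 24 libraries, each centred on its batch mean. The closest were Spcs3, a signal peptidase subunit (r = 0.86), Dynlt3, a dynein light chain (0.84), Abhd16a, a phospholipid hydrolase (0.83), Degs1, a ceramide desaturase (0.82), and Zfp397, a zinc finger gene (0.82). In that order, r was 0.75, 0.45, 0.64, 0.55 and 0.71 within the AD batch. Within the OC batch it was higher, at 0.91, 0.91, 0.92, 0.88 and 0.84. These values share libraries and depth, and are given as a description. Summed olfactory receptors stood at r = 0.83 (Spearman's rho 0.63), with 0.55 within the AD batch and 0.91 within the OC batch. Adcy3 stood at 0.51, Gnal at 0.30, Lhx2 at -0.09, Gap43, a marker of immature neurons, at -0.42, and Omp at -0.49. The sign turned between the AD and OC batches for Omp (0.42 and -0.71) and Lhx2 (0.17 and -0.19).

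The members form 1 block on chromosome 10, from Taar2 to Taar9. In the GENCODE M21 order Vnn3, Vnn1 and Taar1 precede it, and Stx7, Moxd1 and Ccn2 follow. Taar7f, Taar8a, Taar8b and Taar8c lie within it. Taar7f, not a member, rose with cis-3-hexenol, from 1.33 ± 0.281 to 2.61 ± 0.571 CPM (log2 fold change 0.98, SE 0.28, edgeR adjusted p = 0.0325), and with the OC mixture, to 2.40 ± 0.654 CPM (0.85, SE 0.28, adjusted p = 0.035). With octanal it stood at 0.54 (SE 0.28, adjusted p = 0.166). Stx7, the syntaxin gene next to Taar9, rose by 0.23 (SE 0.06, edgeR adjusted p = 0.0114) with octanal and 0.32 (SE 0.06, adjusted p = 0.0021) with the OC mixture, steps smaller than those of Taar6 in the same comparisons. Ccn2, a matricellular protein gene further along, fell by 0.37 (SE 0.10, edgeR adjusted p = 0.0131) with octanal. Moxd1, between them, rose by 0.44 (SE 0.12, edgeR adjusted p = 0.0183) with decanal and 0.55 (SE 0.12, adjusted p = 0.00499) with the AD mixture, where no member was called. Vnn1, a pantetheinase gene on the other side, was called in none of the 6 comparisons.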

How the data were processed

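Messenger RNA libraries of 24 samples were made with a kit that keeps strand and sequenced on an Illumina instrument, per the labels. The authors deposited expected counts per Ensembl gene, not scaled between libraries, in 1 table of 57010 genes per batch. Build GRCm39 and the tools R 4.4.2, Salmon 1.10.1 and STAR 2.7.10b are listed per the submitters' processing notes, which do not give their roles. Values that were not whole, 12.8% in the AD table and 12.6% in the OC table, were rounded. GENCODE M21 (build GRCm38) gave symbols for 52029 IDs, and also lengths and GC content. Coordinates are printed only for RefSeq stretches of GRCm38.p6.

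Genes were tested with edgeR 4.0.16 in R 4.3.3 (filterByExpr, TMM, two-sided quasi-likelihood F-test), in 1 fit per batch of 12 libraries, over 19525 AD and 19175 OC genes, and over 20018 genes for the responses to decanal and octanal. The SE was derived as the ratio of log2 fold change to root F. The procedure was tested on simulated data. Identities came from pairwise alignment with Biopython 1.88. The replicates are biological, per the labels.

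Members and lists were chosen with earlier results of these data known. Named are all 10 members, at most 3 genes per list and comparison (those with the smallest p), Omp, Gap43, Adcy3, Gnal and Lhx2, the 5 genes most like the summed members, and chromosomal neighbours. Alternatives were DESeq2 1.42.0 size factors and Wald test, no filter, 1 CPM in 3 libraries, a replicate block, 6 libraries alone, length and GC offsets (not run, with the block, the Wald test and the 6 libraries, for the 2 responses), scaling by olfactory receptor counts, and each library left out.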

Additional observations from a re-analysis of the deposited data

Results flagged for a closer look

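The responses of Taar6 and Taar7d differed between decanal and octanal, each against the controls of its own batch. In 1 fit over the 24 libraries the differences of the log2 fold changes were -1.09 for Taar6 and -1.60 for Taar7d. In the fits within batches Taar6 stood at -0.23 with decanal and 0.88 with octanal, and Taar7d at -0.61 and 1.01. In the same test 39.2% of all genes were called. Taar6 was higher in the AD controls (3.33 CPM) than in the OC controls (1.49 CPM), as was Taar7d (1.59 and 0.780 CPM). The erythroid genes were lower in the AD controls (492 to 646 CPM) than in the OC controls (2153 to 4462 CPM). The part of the controls and of tissue makeup in the 2 differences was not tested.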

How the results depend on the processing

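Of 690 values under alternatives, 623 kept their direction and side of the threshold. A value not called that stayed not called counts as kept, so this share says little about the calls. Taar6 with octanal was called in 10 of 14 alternatives, Taar2 with cis-3-hexenol in 5 of 14 and Taar6 with the OC mixture in 12 of 14. Between the decanal and octanal responses, Taar6 and Taar7d were each called in 15 of 16. Libraries held 148.5 to 423.1 counts on the 10 members, and the 3 lowest members had too few to be tested. With acetophenone 0 members were called in every alternative. Members called with no filter on low counts were 2 with octanal, 3 with cis-3-hexenol (Taar2, Taar6 and Taar7d) and 3 with the OC mixture (Taar2, Taar6 and Taar7b), where all 10 were tested. With length and GC offsets they were 1 with the AD mixture (Taar7b, -0.82, edgeR adjusted p = 0.0392), 2 with octanal (Taar6 and Taar7d) and 0 with cis-3-hexenol. Scaling by olfactory receptor counts gave 0 with octanal, 0 with cis-3-hexenol, 0 with the OC mixture and 0 for the decanal and octanal responses. That scaling moved the median of all genes to 0.13 with decanal, 0.16 with the AD mixture, -0.42 with octanal, -0.38 with cis-3-hexenol, -0.51 with the OC mixture and 0.57 for the responses. Leaving out 1 library gave 0 to 1 member called with decanal, 0 to 2 with octanal, 0 to 0 with cis-3-hexenol and 0 to 3 with the OC mixture. Octanal called Taar7d in place of Taar6 without OC no-odor library 3 (1.29, adjusted p = 0.0498) and both without OC no-odor library 2. The OC mixture called Taar6 and Taar7b without OC no-odor library 2. Under the replicate block 0 members were called with cis-3-hexenol (Taar2 1.06, edgeR adjusted p = 0.072), and no other comparison changed its count. Same-numbered libraries had deviations that correlated at -0.19 to 0.24 over the genes tested. The labels do not say whether such libraries share a litter or a day. Whether they share an effect on some genes was not tested. The cause of these changes was not tested.

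The summed level scaled by receptor counts had log2 ratios of -0.038 with decanal, 0.15 with octanal, 0.32 with cis-3-hexenol and 0.26 with the OC mixture, and -0.13 with the AD mixture, where TMM gave -0.27. Signs turned in 37 values, all of them not called. Under receptor scaling these were, with decanal, Taar7a (0.13) and Taar7e (0.078), with the AD mixture Taar6 (0.034) and Taar9 (0.073), with octanal Taar7b (-0.049), with cis-3-hexenol Taar7a (-0.048) and Taar7e (-0.17), and with the OC mixture Taar7a (-0.32) and Taar7e (-0.068). Under the replicate block they were Taar9 with acetophenone (0.0015) and Taar7a with decanal (0.0090). With length and GC offsets they were Taar2 (-0.17) and Taar9 (-0.065) with decanal, and with the 1 CPM filter Taar7a with decanal (0.0044). Without 1 library the ranges that crossed 0 were -0.40 to 0.48 for Taar9 with acetophenone. With decanal they were -0.17 to 0.30 for Taar2, -0.20 to 0.34 for Taar7a, -0.25 to 0.13 for Taar7e and -0.21 to 0.68 for Taar9. With the AD mixture they were -0.39 to 0.15 for Taar7a and -0.46 to 0.42 for Taar9. They were -0.60 to 0.11 for Taar7a with octanal, -0.00088 to 0.78 for Taar7b with cis-3-hexenol and -0.11 to 0.59 for Taar7a between the responses.

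Calls over all genes moved by over 1.5 times in places. With acetophenone they were 1, against 302 with no filter, 30 by DESeq2, 5 with the 6 libraries alone and 0 to 39 without 1 library. Cis-3-hexenol had 2341, against 1047 with the 6 libraries alone, 1267 with offsets and 533 to 3150 without 1 library. The OC mixture had 4647, against 2816 with the 6 libraries alone and 3035 without OC mixture library 1. Receptor scaling gave 0, 2273, 2565, 9743, 9206 and 12255 in the 6 comparisons, where the fits with TMM gave 1, 4660, 4347, 5640, 2341 and 4647.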
